A study of Mus musculus with 4 samples.

Results

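The translation factors of macrophages and the CCT chaperonin are described here across a comparison of IL-4 treatment and Stat6 genotype. Members were genes named Eif1 to Eif6 with any suffix (the eIF2 kinases Eif2ak and the sex-linked Eif2s3x and Eif2s3y left out), Eef1 and Eef2 genes, Tcp1 and Cct2 to Cct8, including Cct6a and Cct6b. Each had to have a probeset, a set of array probes for 1 transcript region, annotated with exactly 1 symbol, and the probeset with the highest mean over the 4 arrays stood for the gene. This gave 64 of 19938 genes on the array. A floor was set at 2.52 on the log2 scale, the median of all single-symbol probesets, and 61 members reached it on at least 1 array. Cct6b, a testis form of a CCT subunit, Eif4a3l1, a copy of a helicase gene, and Eef1akmt3, a methyltransferase of eEF1A, stayed under it on every array.

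The 4 arrays held RNA of bone marrow-derived macrophages, 1 array for each group. The groups were 4get/Stat6-/- cells with IL-4, 4get/Stat6-/- cells in medium, BALB/c wild-type cells with IL-4 and BALB/c wild-type cells in medium. 4get is a reporter allele for transcription of the Il4 gene, and Stat6 encodes a transcription factor switched on by IL-4 receptor signalling. All cells were grown for 7 days with 10% supernatant of L929 fibroblasts, which secrete M-CSF, replated, cultured for 24 h with or without IL-4 and sorted for the macrophage protein F4/80. The stated IL-4 dose is 10 per mL with micrograms in the sample labels and milligrams in the series text, and nothing settles the unit. The animals' age, and whether cells of several animals were pooled, were not stated. The genotype groups may also differ in the 4get allele and in background, which cannot be told apart from the Stat6 deletion.

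With 1 array per group no difference below has a replicate check, no test was possible, and precision is limited by how few arrays there were. Signals and differences are on the log2 scale throughout. A gene is said to have risen, fallen or changed only where the difference reached 1 (2-fold) with the higher array at or above the floor. Stat6 had signals of 4.25 with IL-4 and 4.54 in medium in Stat6-/- cells, against 6.68 with IL-4 and 7.34 in medium in wild-type cells, in the direction of the labels. All 8 macrophage markers listed were above the floor, and their summed linear signal was 9616 and 9641 in Stat6-/- cells with IL-4 and in medium, against 6949 and 10705 in wild-type cells with IL-4 and in medium. Of the markers of other cells, 1 of 6 for T cells, 1 of 4 for B cells, 2 of 7 for neutrophils, 0 of 5 for basophils and mast cells, 0 of 1 for erythroid cells, 1 of 5 for dendritic cells, 1 of 4 for NK cells and 4 of 5 for fibroblasts reached the floor. The fibroblast markers summed to 32.3 and 31.3 in Stat6-/- cells with IL-4 and in medium, against 39.4 and 29.4 in wild-type cells with IL-4 and in medium. Postn alone set the wild-type IL-4 array apart there: without it the other 4 summed to 29.0 and 27.8 in Stat6-/- cells with IL-4 and in medium, against 27.7 and 26.2 in wild-type cells with IL-4 and in medium. The part of the lower macrophage marker sum in the differences of the wild-type IL-4 array was not tested. In such bulk samples fewer cells of a type and less RNA per cell cannot be told apart.

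Translation starts when the small ribosomal subunit, loaded with initiator tRNA by eIF2 and held by the many-subunit eIF3, is recruited to the capped mRNA by the eIF4 group and scans to a start codon. eIF4E binds the cap, eIF4A unwinds the leader, and the 4E-BP proteins hold eIF4E inactive until the kinase mTORC1 phosphorylates them. Elongation then needs eEF1A, which brings in aminoacyl-tRNA, eEF2, which moves the ribosome along, and eIF5A, which carries the modified amino acid hypusine and frees stalled ribosomes. CCT, also called TRiC, is a double-ring chaperonin of 8 different subunits that folds newly made actin, tubulin and other proteins. IL-4 drives macrophages into alternative activation, a state with high arginase and polyamine metabolism, and hypusine is made from the polyamine spermidine.

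The promoters of 4 members that the results turn on are shown first. Eif5a was the member that rose most with IL-4 in wild type, on the brighter of its probesets. Cct3 was the CCT subunit with the largest genotype difference. Eif4a1 and Eif4a2, helicase genes of one family, differed in opposite directions with IL-4 in wild type, Eif4a1 by less than 2-fold. They are the 250 bases before an annotated start, from RefSeq on GRCm38.p6, written 5′ to 3′ on the gene's strand. Capitals mark CACGTG, the E-box core bound by Myc and USF proteins. Eif5a lies at chr11:69921387-69921636 on the minus strand, Eif4a1 at chr11:69672424-69672673 on the minus strand, Eif4a2 at chr16:23107218-23107467 on the plus strand and Cct3 at chr3:88296885-88297134 on the plus strand.
Eif5a: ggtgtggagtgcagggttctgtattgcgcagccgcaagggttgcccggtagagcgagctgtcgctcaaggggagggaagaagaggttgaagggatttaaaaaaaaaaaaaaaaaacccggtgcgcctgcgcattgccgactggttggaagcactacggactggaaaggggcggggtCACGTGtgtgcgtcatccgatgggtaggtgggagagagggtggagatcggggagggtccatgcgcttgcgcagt
Eif4a1: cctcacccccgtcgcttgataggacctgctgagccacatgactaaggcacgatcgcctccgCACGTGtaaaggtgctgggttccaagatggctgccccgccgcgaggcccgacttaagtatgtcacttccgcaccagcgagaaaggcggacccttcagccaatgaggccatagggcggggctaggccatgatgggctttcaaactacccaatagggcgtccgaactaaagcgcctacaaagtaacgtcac
Eif4a2: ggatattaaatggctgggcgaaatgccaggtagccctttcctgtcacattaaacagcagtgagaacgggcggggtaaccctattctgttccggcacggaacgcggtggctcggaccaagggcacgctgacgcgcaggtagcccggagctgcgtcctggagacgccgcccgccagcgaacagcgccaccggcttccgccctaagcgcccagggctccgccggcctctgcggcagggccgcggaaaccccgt
Cct3: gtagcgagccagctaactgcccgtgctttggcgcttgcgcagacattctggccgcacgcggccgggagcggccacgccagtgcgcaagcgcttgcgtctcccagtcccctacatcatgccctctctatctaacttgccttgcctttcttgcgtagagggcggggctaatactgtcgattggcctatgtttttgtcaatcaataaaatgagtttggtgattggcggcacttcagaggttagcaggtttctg
The CACGTG begins 74 bases before the start in Eif5a, where 3 of 6 annotated starts hold one, and 189 bases before it in Eif4a1. The Eif5a window shown was picked as the most upstream that holds the motif, and a start further upstream holds none. These letters are not in the windows of Eif4a2 and Cct3. Promoter windows were found for 50 of the 64 members, and 11 of the 50 genes (22%) held CACGTG in at least 1 window, against 6.86% of 27025 genes. The count holds for either strand, since the motif is its own reverse complement. Per window it was 19.7% of 66, against 6.02% of 32851. The background holds all genes with a window, not matched to the members by signal, base composition or number of starts. The 11 genes went both ways with IL-4 in wild type, from -0.79 for Eef2k to 1.27 for Eif5a. CACGTG was in 0 of the 8 CCT genes with a window, which were Tcp1, Cct2, Cct3, Cct5, Cct6a, Cct6b, Cct7 and Cct8. The spaced palindrome TTC, 4 bases of any kind, GAA, the form bound by STAT6, was in 3 of 50 member genes (6%), against 6.76% of all genes. A match of letters is a description and no evidence of binding.

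**Figure D1:**
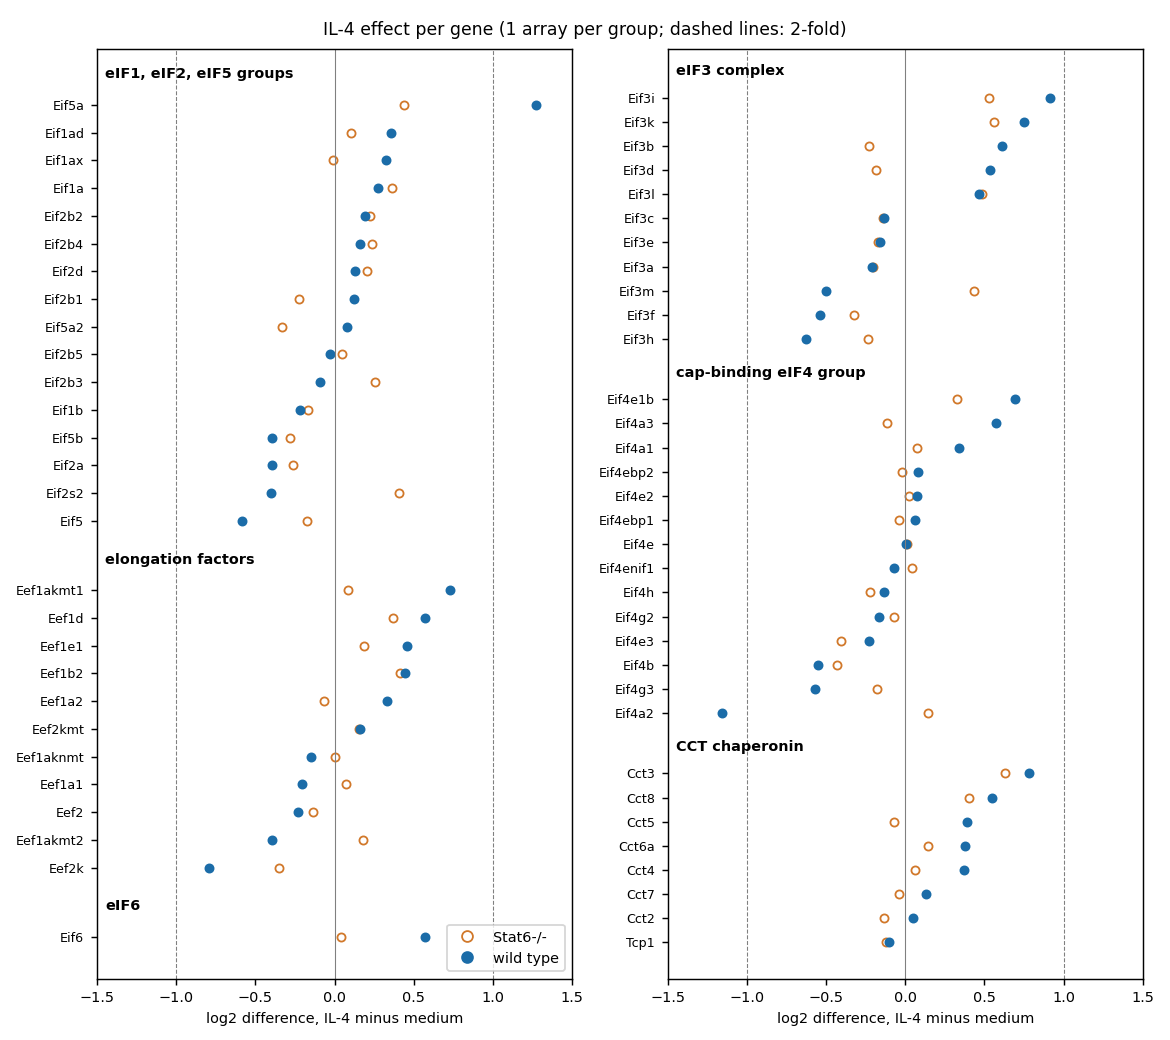
Log2 difference between the IL-4 array and the medium array for each of the 61 members above the floor, ordered by role, with open circles for Stat6-/- cells and filled circles for wild-type cells, 1 array per group. In wild type Eif5a lies right of the 2-fold line at 1.27 and Eif4a2 left of it at -1.16, while every Stat6-/- point lies between the lines.

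The design asks which genes differ with IL-4 and which of these differences remain without Stat6. In wild-type cells 2 of 61 members passed the 2-fold rule (3.28%), where 9.74% of all genes did. Eif5a rose 2.42-fold on the brighter of its probesets, while the other gave a difference of 0.71, short of the rule. Eif4a2 fell 2.23-fold. In Stat6-/- cells 0 of 60 members passed, and 0.355% of all genes did. The share of members past the rule thus lay under the background in wild type, and the members' median difference was 0.08, against -0.10 for all genes above the floor. Eif4a2 lay just inside the rule at -1.16, and the nearest member outside it was Eif3i at 0.91. At a smaller size of 0.5 (1.41-fold), 3 members were higher and 0 lower with IL-4 in Stat6-/- cells, 5% of 60 where 9.48% of all genes were past it. In wild type 12 were higher and 7 lower, 31.1% of 61 where 35.2% of all genes were past it, 11.9% higher and 23.3% lower. With quantile normalization applied again, which moves the median of all genes there to 0.02, 16 members were higher and 3 lower, and 15.3% of genes above the floor were higher and 15.9% lower.

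The Eif1, Eif2 and Eif5 genes were grouped by name, mainly factors for start codon selection and the initiator tRNA complex. Of these, 16 were above the floor, and Eif5a was the only one past 2-fold with IL-4 in wild type. Eif5a and Eif5a2 are in this group by name only, since eIF5A acts in elongation. Eif5a had a signal of 8.21 with IL-4 and 7.77 in medium in Stat6-/- cells, against 9.80 with IL-4 and 8.52 in medium in wild-type cells. The wild-type IL-4 array thus stood above the other 3, and the IL-4 difference was 0.44 in Stat6-/- and 1.27 in wild type. A second Eif5a probeset read 6.02 and 5.97 in Stat6-/- cells with IL-4 and in medium, against 7.08 and 6.36 in wild-type cells with IL-4 and in medium. It had the same order of genotypes with a smaller IL-4 difference of 0.71 in wild type, so the mean of both probesets, 0.99, missed the rule. Whether either probeset also reads near-identical copies of the gene was not tested. The paralogue Eif5a2 stayed between 2.74 and 3.15 on all arrays, near the floor.

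Eif1ax, an X-linked eIF1A gene whose product promotes scanning, had signals of 4.43 with IL-4 and 4.44 in medium in Stat6-/- cells, against 5.49 with IL-4 and 5.17 in medium in wild-type cells. Both Stat6-/- arrays lay below both wild-type arrays, by 1.07 with IL-4 and 0.74 in medium. Its autosomal relative Eif1a showed differences of -0.31 with IL-4 and -0.39 in medium for Stat6-/- over wild type. Eif2b5, the catalytic subunit of the exchange factor eIF2B, had 4.04 with IL-4 and 3.99 in medium in Stat6-/- cells, against 4.89 with IL-4 and 4.92 in medium in wild-type cells. The IL-4 difference was 0.05 in Stat6-/- and -0.03 in wild type, while the genotype difference was -0.85 with IL-4 and -0.93 in medium. Among the other eIF2B subunits, Eif2b3 was lower by 0.38 with IL-4 and 0.73 in medium in Stat6-/- cells, and Eif2b2 differed by 0.01 and -0.02. Eif2b1 and Eif2b4 were lower in both Stat6-/- arrays, with differences of -0.52 and -0.18 with IL-4.

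Eif5, the protein that makes eIF2 hydrolyse its GTP, had 6.89 with IL-4 and 7.06 in medium in Stat6-/- cells, against 6.73 with IL-4 and 7.31 in medium in wild-type cells. Its IL-4 difference of -0.59 in wild type was the most negative in this role. Eif2s2, the beta subunit of eIF2, had 5.47 with IL-4 and 5.06 in medium in Stat6-/- cells, against 5.41 with IL-4 and 5.81 in medium in wild-type cells. The IL-4 differences of that probeset were 0.41 in Stat6-/- and -0.40 in wild type, but a second Eif2s2 probeset gave 0.01 and 0.21, so its direction in wild type depends on the probeset. Eif2a, an initiator tRNA carrier that is no subunit of eIF2, was lower with IL-4 by 0.26 in Stat6-/- and 0.40 in wild type. Eif5b, which joins the ribosomal subunits, had IL-4 differences of -0.28 in Stat6-/- and -0.39 in wild type. Eif1b, a relative of the scanning factor eIF1, stayed between 5.75 and 6.001 and Eif2d, a factor of reinitiation and recycling, between 3.58 and 3.79. Eif1ad, an eIF1A-like protein of ribosome assembly, was lower in Stat6-/- by 0.77 with IL-4 and 0.51 in medium.

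Of 11 eIF3 subunits above the floor, 4 were higher and 2 lower by at least 0.5 with IL-4 in wild type, where 11.9% of all genes were higher and 23.3% lower. In that comparison 0 of 11 passed 2-fold, where 9.74% of all genes did. Eif3i, a subunit of the WD-repeat module with Eif3b, had 6.003 with IL-4 and 5.47 in medium in Stat6-/- cells, against 6.77 with IL-4 and 5.86 in medium in wild-type cells. Its IL-4 difference was 0.53 in Stat6-/- and 0.91 in wild type. Eif3k, a peripheral subunit, was higher with IL-4 in both genotypes, by 0.56 in Stat6-/- and 0.75 in wild type.

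Eif3b, a scaffold subunit, had 6.70 with IL-4 and 6.93 in medium in Stat6-/- cells, against 7.94 with IL-4 and 7.33 in medium in wild-type cells. The wild-type IL-4 array was the highest of the 4, and Stat6-/- cells were lower by 1.24 with IL-4, a 2.36-fold difference, and by 0.40 in medium. Eif3d, a subunit that can itself bind a cap, had the same pattern at a smaller size, with IL-4 differences of -0.18 in Stat6-/- and 0.53 in wild type.

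Eif3h, a subunit of the outer MPN and PCI core, was placed the other way. It had 8.95 with IL-4 and 9.19 in medium in Stat6-/- cells, against 8.07 with IL-4 and 8.70 in medium in wild-type cells. Both Stat6-/- arrays were above both wild-type arrays, and the IL-4 differences were -0.24 in Stat6-/- and -0.63 in wild type. Eif3f, its MPN partner, showed IL-4 differences of -0.32 in Stat6-/- and -0.54 in wild type and was higher in Stat6-/- by 0.61 with IL-4. Eif3e was also higher in both Stat6-/- arrays, by 0.22 with IL-4 and 0.23 in medium. The core scaffold subunits Eif3a and Eif3c showed IL-4 differences of -0.21 and -0.14 in Stat6-/- cells, against -0.21 and -0.13 in wild-type cells. Eif3l, a partner of Eif3k, had IL-4 differences of 0.48 in Stat6-/- and 0.46 in wild type, and both Stat6-/- arrays were lower by 0.52 with IL-4 and 0.54 in medium. Eif3m was higher in Stat6-/- with IL-4 by 0.996, just under the rule, and its second probeset gave 0.16.

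**Figure D2:**
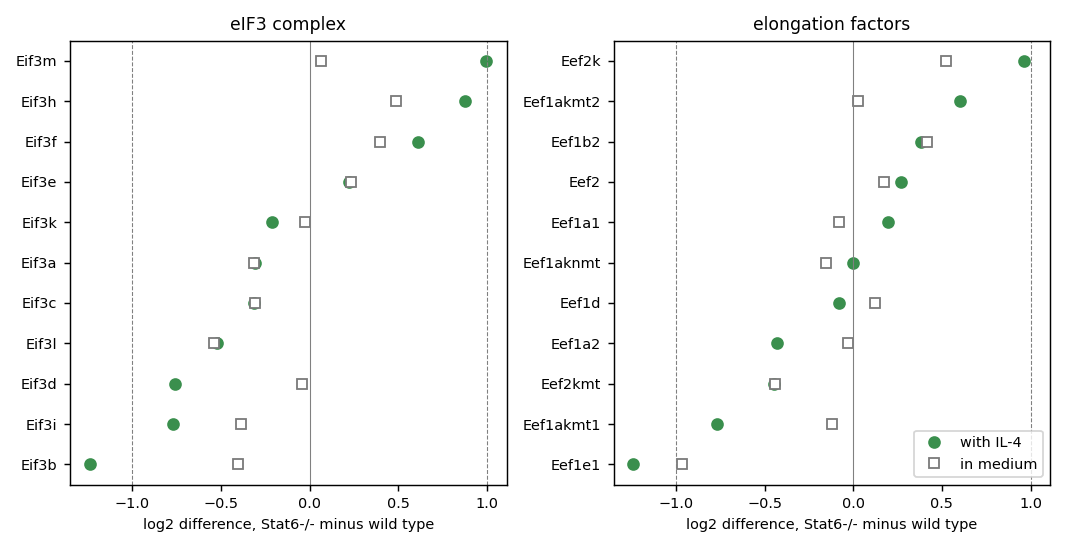
Log2 difference between the Stat6-/- array and the wild-type array for eIF3 subunits (left) and elongation factors (right), with filled circles for the IL-4 arrays and open squares for the medium arrays. Eif3m, Eif3h, Eif3f and Eif3e lie right of 0 and 7 other subunits left of it, down to -1.24 for Eif3b with IL-4.

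In the cap-binding eIF4 group, 14 members were above the floor. The helicase genes Eif4a1 and Eif4a2, whose products are closely related, differed in opposite directions with IL-4 in wild type. The differences were 0.34 for Eif4a1, short of the rule, and -1.16 for Eif4a2. In medium both were lower in Stat6-/- than in wild type, with differences of -0.45 and -0.43. Eif4a2 had 7.01 with IL-4 and 6.87 in medium in Stat6-/- cells, against 6.14 with IL-4 and 7.29 in medium in wild-type cells. The wild-type IL-4 array alone was low, and IL-4 made a difference of 0.14 in Stat6-/- and -1.16 in wild type. The difference of effects, wild type minus Stat6-/-, was -1.30, the single such difference past 2-fold among 61 members, where 8.97% of all genes passed.

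Eif4a1 had 9.24 with IL-4 and 9.17 in medium in Stat6-/- cells, against 9.96 with IL-4 and 9.62 in medium in wild-type cells. Its 3 probesets gave IL-4 differences between 0.34 and 0.37 in wild type, and they placed Stat6-/- cells lower with IL-4 by 0.72 to 0.81. Eif4a3, the helicase of the exon junction complex, had IL-4 differences of -0.12 in Stat6-/- and 0.57 in wild type. A probeset of such a family can also read transcripts of near-identical copies.

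**Figure D3:**
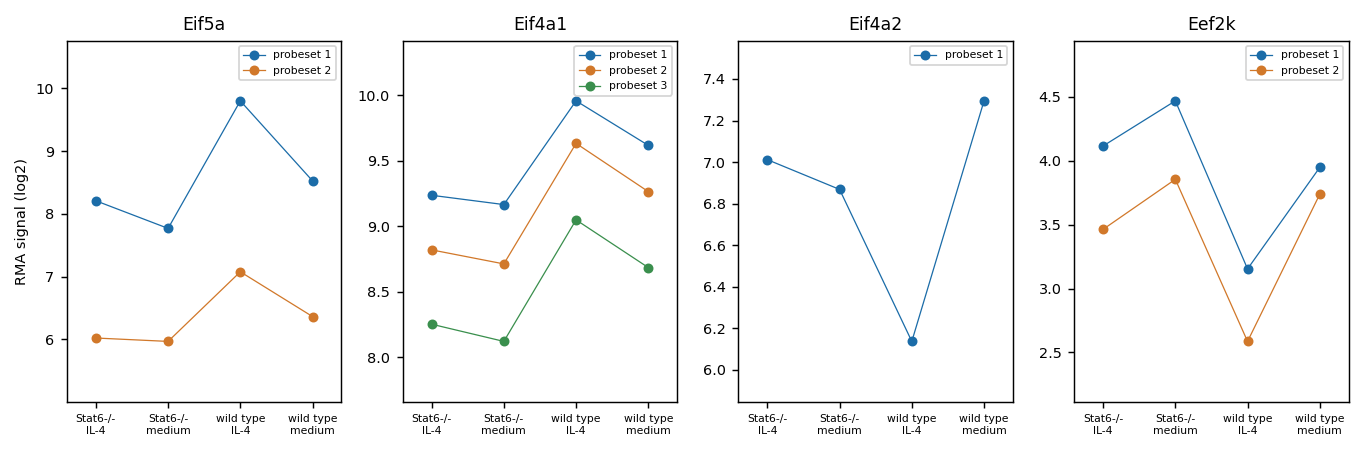
RMA signal (log2) of each single-symbol probeset of Eif5a, Eif4a1, Eif4a2 and Eef2k on the 4 arrays, 1 per group; lines join the arrays of a probeset and are no time course, and the axes do not start at 0. All probesets of Eif5a and Eif4a1 are highest on the wild-type IL-4 array, and all those of Eif4a2 and Eef2k are lowest on it.

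Eif4e, the cap-binding protein, had 6.14 with IL-4 and 6.13 in medium in Stat6-/- cells, against 6.85 with IL-4 and 6.84 in medium in wild-type cells. IL-4 differences were thus 0.01 in Stat6-/- and 0.00 in wild type, and both Stat6-/- arrays lay 0.71 below the matching wild-type arrays. A second probeset placed Stat6-/- lower by 0.90 with IL-4 and 0.48 in medium, and another, near the floor, by 0.06 and 0.00. The inhibitor Eif4ebp1 stayed between 4.84 and 4.94 on all 4 arrays, and Eif4ebp2 between 5.24 and 5.47. The scaffold Eif4g3 had IL-4 differences of -0.18 in Stat6-/- and -0.57 in wild type, and Eif4b, which stimulates eIF4A, had -0.43 and -0.55. Eif4e1b, a germ-line cap-binding form, was higher with IL-4 by 0.33 in Stat6-/- and 0.69 in wild type, but its signals lay between 1.84 and 2.53, at the floor, and a second probeset gave the opposite sign. Eif4g2, Eif4h, Eif4e2, Eif4e3 and Eif4enif1 had IL-4 differences between -0.23 and 0.07 in wild type. Eif6, which keeps the large ribosomal subunit apart from the small one, had 6.78 with IL-4 and 6.74 in medium in Stat6-/- cells, against 7.52 with IL-4 and 6.94 in medium in wild-type cells, and was highest in wild type with IL-4.

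Of the elongation factors and their enzymes named Eef1 or Eef2, 11 were above the floor. With IL-4 in wild type 0 of 11 passed 2-fold, where 9.74% of all genes did. Eif5a, counted above by its name, is not among them. Eef2k, the kinase that phosphorylates and inhibits eEF2, had 4.12 with IL-4 and 4.47 in medium in Stat6-/- cells, against 3.15 with IL-4 and 3.95 in medium in wild-type cells. The IL-4 differences were -0.35 in Stat6-/- and -0.79 in wild type. The second Eef2k probeset gave -0.39 and -1.15, so the size depends on the probeset. The wild-type IL-4 array was the lowest on both probesets, while the genotypes overlapped on the second, at 3.46 with IL-4 and 3.85 in medium in Stat6-/- cells, against 2.59 with IL-4 and 3.74 in medium in wild-type cells. Its target Eef2 had 9.48 with IL-4 and 9.61 in medium in Stat6-/- cells, against 9.21 with IL-4 and 9.44 in medium in wild-type cells.

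Eef1a1, which delivers tRNA to the ribosome, lay between 11.79 and 12.00 on all arrays, and Eef1a2, its muscle and nerve form, between 2.996 and 3.43. Eef1e1, also known as AIMP3, is a scaffold of the multi-synthetase complex and had 4.08 with IL-4 and 3.89 in medium in Stat6-/- cells, against 5.32 with IL-4 and 4.86 in medium in wild-type cells. Both Stat6-/- arrays were lower, by 1.24 with IL-4 and 0.97 in medium, and the first passed 2-fold. The exchange factors of eEF1A were higher with IL-4 in both genotypes, Eef1b2 with IL-4 differences of 0.41 in Stat6-/- and 0.44 in wild type, and Eef1d with 0.37 and 0.57. Eef1akmt1, a methyltransferase of eEF1A, was highest in wild type with IL-4 at 5.22 and lay at 4.45 with IL-4 and 4.37 in medium in Stat6-/- cells, and at 4.49 in wild-type cells in medium. Eef1aknmt, another such enzyme, had the same signal of 3.23 on 3 arrays and 3.38 in wild type in medium. Eef2kmt, which methylates eEF2, was lower in Stat6-/- by 0.45 with IL-4 and 0.44 in medium, and Eef1akmt2 was higher by 0.60 and 0.03.

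The CCT chaperonin was lower in Stat6-/- cells in both cultures. All 8 subunits were lower in Stat6-/- than in wild type with IL-4, by 0.33 to 1.15 and a median of -0.60, against 0.00 for all genes, of which 49.8% were lower. In medium all 8 were lower, with a median of -0.48 against -0.10 for all genes, of which 62.0% were lower. Among genes with a mean signal of at least 6, 1600 of 2210 were lower in medium, with a median of -0.15. With IL-4, 1152 of these 2210 were lower, with a median of -0.03. In medium 2 of the 8 subunits (Cct4 and Cct5) turned to the other sign under quantile normalization applied again and after removal of the intensity trend. Both Stat6-/- arrays lay below both wild-type arrays for 7 of 8 subunits, where 24.7% of all genes did so. This count depends on the scaling. With quantile normalization applied again it was 5 of 8 (62.5%), against 18.6% of all genes. With each array shifted to one median it was 8 of 8, against 30.8% of all genes. The wild-type IL-4 array was the highest of the 4 for 7 of 8 subunits, as it was for 28.2% of all genes.

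Cct3 had 5.67 with IL-4 and 5.04 in medium in Stat6-/- cells, against 6.83 with IL-4 and 6.05 in medium in wild-type cells. It was lower in Stat6-/- by 1.15 with IL-4 and 1.004 in medium, and IL-4 made a difference of 0.63 in Stat6-/- and 0.78 in wild type. The IL-4 difference of this subunit was thus of similar size in both genotypes, short of 2-fold. Cct6a had 6.72 with IL-4 and 6.58 in medium in Stat6-/- cells, against 7.75 with IL-4 and 7.37 in medium in wild-type cells. Stat6-/- cells were lower by 1.03 with IL-4, past 2-fold, and by 0.79 in medium.

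Cct8 had 6.70 with IL-4 and 6.29 in medium in Stat6-/- cells, against 7.35 with IL-4 and 6.80 in medium in wild-type cells. Its IL-4 differences were 0.40 in Stat6-/- and 0.55 in wild type. Tcp1, the founding subunit, had 6.98 with IL-4 and 7.10 in medium in Stat6-/- cells, against 7.50 with IL-4 and 7.60 in medium in wild-type cells. Its IL-4 difference was -0.12 in Stat6-/- and -0.10 in wild type, the single negative one among the subunits in wild type.

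Cct7 had 6.35 with IL-4 and 6.39 in medium in Stat6-/- cells, against 6.98 with IL-4 and 6.85 in medium in wild-type cells. Cct5 had 6.89 with IL-4 and 6.96 in medium in Stat6-/- cells, against 7.46 with IL-4 and 7.07 in medium in wild-type cells. Both arrays of Stat6-/- cells were the lower ones, although for Cct5 the gap in medium was 0.11. Cct2 had 7.41 with IL-4 and 7.54 in medium in Stat6-/- cells, against 7.76 with IL-4 and 7.71 in medium in wild-type cells, and Cct4 had 6.96 with IL-4 and 6.90 in medium in Stat6-/- cells, against 7.29 with IL-4 and 6.92 in medium in wild-type cells. Cct4 was the subunit whose genotypes overlapped. The median IL-4 difference over the 8 subunits was 0.01 in Stat6-/- and 0.37 in wild type, where all genes had -0.04 and -0.10. With IL-4 in wild type 7 of 8 were higher (8 of 8 after removal of the intensity trend), where 42.1% of all genes were higher in the values as deposited. Taken subunit by subunit, the difference of effects, wild type minus Stat6-/-, had a smaller median of 0.18, against -0.07 for all genes. It was positive for 8 of 8, where 44.0% of all genes were positive. It was at most 0.46 (Cct5), so 0 of 8 reached 0.5, where 12.5% of all genes did.

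**Figure D4:**
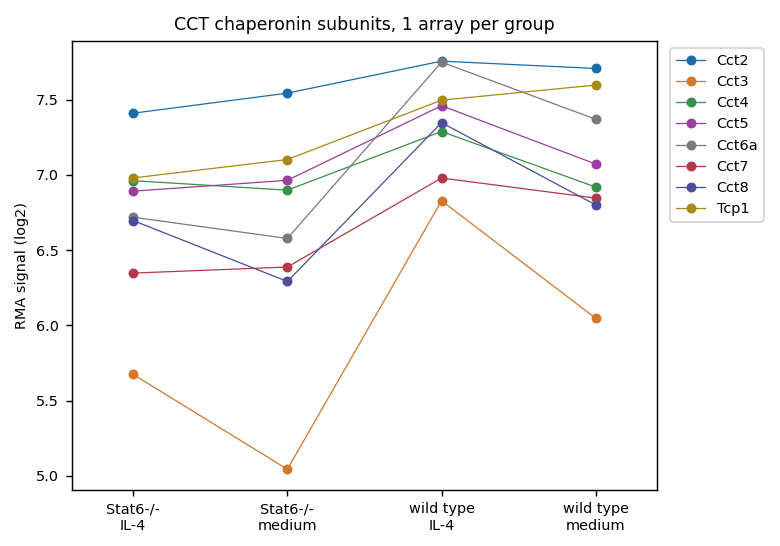
RMA signal (log2) of the 8 CCT subunits on the 4 arrays, 1 array per group, with lines joining the arrays of a subunit. Cct3 spans 5.04 to 6.83, and 7 of the 8 subunits are highest on the wild-type IL-4 array.

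Stat6-/- cells with IL-4 were lower than wild-type cells with IL-4 for 6 members past 2-fold and higher for 0, 9.84% of 61, where 8.84% of all genes passed in either direction and 4.83% were lower. The 6 were Eif5a (3.01-fold), Eef1e1 (2.36-fold), Eif3b (2.36-fold), Cct3 (2.23-fold), Eif1ax (2.09-fold) and Cct6a (2.04-fold), with Cct6a just inside the rule at -1.03 and Eif3m just outside at 0.996. In medium 1 of 60 members passed, Cct3 at -1.004, 1.67% where 1.45% of all genes did, and Eef1e1 at -0.97 lay just outside. Between genotypes with IL-4, 21 of 61 members (34.4%) were lower by at least 0.5, where 15.3% of all genes were, and 6 were higher, where 13.5% of all genes were. In medium 12 of 60 (20.0%) were lower by at least 0.5 and 1 higher, where 11.8% of all genes were lower and 4.55% higher. With quantile normalization applied again these were 9 lower and 4 higher, and 6.41% and 6.38% of genes above the floor. Both Stat6-/- arrays were lower than both wild-type arrays for 30 of 61 members (49.2%), against 24.7% of all genes. They were higher for 10 (16.4%), against 13.4%. With quantile normalization applied again, which moves the median of all genes in medium to 0.02, the count lower was 20 of 61 (32.8%) against 18.6% of all genes.

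**Figure D5:**
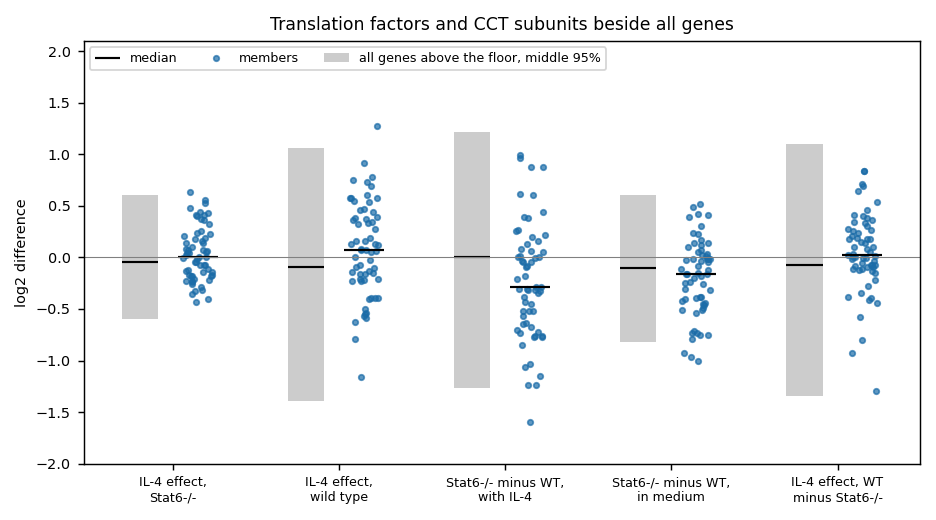
Log2 differences of the 61 members (points, with a line at their median) beside the middle 95% of all genes above the floor (grey bars, with a line at their median) in the 5 comparisons. In Stat6-/- against wild type with IL-4 the member median of -0.29 lies below that of all genes, 0.00, and with IL-4 against medium in wild type the members span -1.16 to 1.27.

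A group of members placed the other way between genotypes was noticed after the values were seen. Textbook knowledge places Eef1a1, Eef1b2, Eef1d, Eef1g, Eef2, Eif3e, Eif3f, Eif3h and Eif4b among mRNAs that begin with a 5′ terminal oligopyrimidine tract, whose translation mTORC1 controls. Of these 9, 8 were measured here. With IL-4 in wild type 6 of the 8 were lower (75%), with a median of -0.22, against 0.12 for the other 53 members. Of all genes above the floor 57.6% were lower, and those with a mean signal of at least 6 had a median of -0.19, so this is near the background, and with the lowess trend subtracted the list's median was -0.08. In Stat6-/- cells over wild type with IL-4, 7 of 8 were higher (87.5%), with a median of 0.26, against -0.32 for the other 53, where 49.8% of all genes were higher with a median of 0.00. Both Stat6-/- arrays were lower for 0 of 8 and higher for 4 of 8, whereas they were lower for 30 of the other 53 and higher for 6, beside 24.7% lower and 13.4% higher among all genes. The list was chosen on these arrays and has no test. It holds only members, so it does not stand for all mRNAs of this class.

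Other genes of protein synthesis gave a context from lists that do not overlap with the members. Past 2-fold with IL-4 in wild type, 2.96% of all genes rose and 6.78% fell, and 0.24% rose in Stat6-/- cells. For Stat6-/- over wild type with IL-4, 4.01% were higher and 4.83% lower. Among 18 genes of the eIF2 kinases and the integrated stress response, 0 rose and 2 fell with IL-4 in wild type, Eif2ak2 (the double-stranded RNA-activated kinase PKR) by 1.47 and Cebpg by 1.03, a count close to what the share over all genes gives. In Stat6-/- cells Ddit3, a stress transcription factor, rose by 1.24 with IL-4, and Sesn2, an inhibitor of mTORC1 signalling, was higher than in wild type with IL-4 by 1.51. Among 19 genes of mTORC1, MNK and S6 kinase control, Mknk1, a kinase that phosphorylates eIF4E, fell by 1.19 with IL-4 in wild type. In Stat6-/- cells with IL-4 the ribosomal S6 kinase gene Rps6ka3 was lower than in wild type, with a difference of -1.14, and Tsc1, which restrains mTORC1, had a difference of effects of -1.05. Among 14 poly(A)-binding and release factors, Ddx6, a decay and repression helicase, fell by 1.15 with IL-4 in wild type. Stat6-/- cells had differences to wild type of -1.15 with IL-4 for Abce1, a ribosome recycling factor, and of -1.02 in medium for Denr, a reinitiation factor.

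Of 20 cytosolic aminoacyl-tRNA synthetases and their scaffold proteins, 0 rose and 0 fell with IL-4 in wild type, with a median of 0.18, against -0.10 for all genes. In Stat6-/- cells with IL-4, 3 of 20 were lower than in wild type past 2-fold, Rars by 1.35, Vars by 1.09 and Eprs by 1.02, where 4.83% of all genes were, and the median was -0.62, against 0.00 for all genes. None of 9 modification genes, mainly of the diphthamide of eEF2 and the hypusine of eIF5A, passed 2-fold in the 5 comparisons (0 of 9). Between 0.355% and 9.74% of all genes passed in these comparisons, so for so short a list the count is near the background. Of 8 mitochondrial translation factors, Tufm, the mitochondrial elongation factor Tu, differed by -1.03 for Stat6-/- over wild type with IL-4, and its exchange factor Tsfm had a difference of effects of 1.29.

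Of 13 other chaperones, the median with IL-4 in wild type was 0.51, against -0.10 for all genes, and 0 passed 2-fold, where 9.74% of all genes did. In Stat6-/- cells with IL-4, 4 of 13 were lower past 2-fold, among them Hsph1, an HSP110 protein, by 2.02, Hspd1, the mitochondrial chaperonin, by 1.34 and Hspa9, a mitochondrial HSP70, by 1.19, where 4.83% of all genes were. The median was -0.86, against 0.00 for all genes. Of 12 prefoldin and phosducin-like cofactors of CCT, 0 passed between genotypes or with IL-4, where between 0.355% and 9.74% of all genes did. Pdcl3 had a difference of effects of -1.05, and 8.97% of all genes passed there. Of 13 actin and tubulin genes and other CCT clients, Tubb5, a beta-tubulin, was lower in Stat6-/- with IL-4 by 1.05, at 8.21 against 9.26 in wild type, and Actb differed by -0.27. Factors whose probesets carry several symbols (Eif3j1 and Eif3j2) and Eif2s1, Eif4g1, Eif4ebp3, Eif1, Eif3g and Eef1g were not analysed here as members.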

How the data were processed

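RNA of sorted macrophages was hybridised as biotin-labelled target to Affymetrix whole-transcript arrays, 200 ng per array, per the labels' protocols. The deposited values are log2 signals, 1 per probeset and array, made by the authors with RMA in Affymetrix Expression Console, per the submitters' processing notes. RMA corrects background, normalizes by quantiles and summarises probes, and it compresses the differences of dim genes. Values range from 0.158 to 13.1 and were read as log base 2. Tool versions, settings and genome build: not given in the sources used here.

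Of 35557 probesets, 21789 had 1 symbol in the platform annotation, giving 19938 genes, of which 10798 reached the floor. All 64 members matched an Entrez identifier in a RefSeq table (GRCm38.p6). Of their 74 probesets, 8 members had several. Differences of signals were computed between arrays for 5 comparisons with Python 3.11.15, pandas 2.3.3 and statsmodels 0.14.6, with no test and no p-value. The difference and count steps were tested on simulated data. Background shares count genes whose higher array reached the floor, and medians cover genes that reached it on any array.

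Members, lists and tests were chosen with earlier results of these data known. Named were members past 2-fold, the 4 largest and 2 smallest IL-4 differences in wild type per role, all CCT subunits, a fixed set of 15 genes and up to 3 members past 2-fold per list. Other members were added after their values were seen, to account for each group. The 7 alternatives were quantile normalization again, a shift to one median, subtraction of a lowess trend on mean signal (fraction 0.3), no floor, a floor at 4.65, signals raised to the floor, and the mean of a gene's probesets.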

Additional observations from a re-analysis of the deposited data

Results flagged for a closer look

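Eif4a2 was the one member whose IL-4 differences had opposite signs in the genotypes with a gap past 2-fold. The wild-type effect minus the Stat6-/- effect was -1.30, from 0.14 in Stat6-/- cells and -1.16 in wild-type cells. The Stat6-/- value was small beside the standard deviation of 0.30 over all genes above the floor there, so its sign carries little weight. This difference was not tested, since each group had 1 array, and Eif4a2 had a single probeset named for it alone.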

How the results depend on the processing

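No paired analysis was possible because each group had 1 array and the labels carry no replicate numbers, so leaving out a replicate was not possible either. Of 105 summary values recomputed under the 7 alternatives, 6 moved beyond the limits set, 1.5 times for a count and the binomial interval of the median over genes for a median. Of 70 medians 3 took the other sign, all near 0 and all for IL-4 in Stat6-/- cells: the member median of 0.01 came to -0.009 with the higher floor and -0.015 with the mean of probesets, and the CCT median of 0.01 to -0.04 with no floor. Under lowess the member median with IL-4 in wild type was 0.26, against 0.08 as deposited, and that of the difference of effects 0.14, against 0.02. With the mean of probesets, 1 member (Eif4a2) instead of 2 passed 2-fold with IL-4 in wild type, since Eif5a came to 0.99. For Stat6-/- over wild type in medium, the member median of -0.16 came to -0.015 under quantile normalization and -0.016 under lowess. The count past 2-fold there, 1 in the values as deposited, was 0 under quantile normalization, 0 under lowess and 2 after the median shift. Of 1400 values of named genes, 0 turned direction past the rule and 9 crossed it: Cct3 in medium (-0.83 and -0.82) and Cct6a with IL-4 (-0.94 and -0.93) under quantile normalization and lowess, Eif4a2 in wild type under lowess (-0.996), Eif5a as above, and, to past it, Eef1e1 in medium after the median shift (-1.03) and Eif3i in wild type (1.06 and 1.10). The cause was not tested. The counts of genotype order and of the oligopyrimidine list under other scalings were added after seeing the data. In the latter, 7 of 8 genes were higher in Stat6-/- with IL-4 under quantile normalization, the median shift and lowess, but under lowess the median with IL-4 in wild type shrank to -0.08 and that of the difference of effects was 0.05, against -0.11 as deposited. Signals near the floor limit Eif4e1b, Eif5a2 and Eef1aknmt.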
